A study of Arabidopsis thaliana with 12 samples.

Results

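The 9 genes of indole glucosinolate hydroxylation and methylation described here were the cytochrome P450 genes CYP81F1 to CYP81F4 and the methyltransferase genes IGMT1 to IGMT5. They were taken by locus code from a deposited count table of 33331 genes, and all 9 were found in it. Transcripts had been counted by 3′ RNA-seq, which samples an mRNA close to its 3′ end, in shoots of Arabidopsis thaliana at 2 weeks of age. Plants were kept at 22 °C and 50% humidity under unbroken light of 100 µmol per square metre and second. The 4 genotypes had 3 libraries each. The genotype aig2abc pad4 carried mutations of the neighbouring genes AIG2A, AIG2B and AIG2C and of PAD4, a lipase-like regulator of plant immunity. The genotype aig2abc carried the AIG2 mutations alone, pad4 carried the PAD4 mutation alone, and Col-0 was the wild type. The labels give neither the alleles nor the kind of lesion, and do not say whether replicate libraries were made from different plants. The p-values therefore describe variation among these libraries, part of which may be technical.

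Indole glucosinolates are sulfur-rich storage compounds of the cabbage family that are made from tryptophan and broken down by myrosinases when tissue is attacked. The parent compound, indol-3-ylmethyl glucosinolate, is hydroxylated on its indole ring by CYP81F enzymes, and the hydroxyl group is then methylated by indole glucosinolate O-methyltransferases, the IGMT enzymes. CYP81F2 is best known for hydroxylation of the fourth carbon of the ring, the step towards the methoxylated compound that PEN2, an atypical myrosinase, uses in defence against fungi and in callose deposition. CYP81F4 acts on the ring nitrogen, and IGMT5 methylates the hydroxyl group placed there. IGMT1 and IGMT2 methylate the hydroxyl group on the fourth carbon.

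The methyltransferase genes IGMT1 to IGMT4 are tandem copies, so their 3′ ends bear on how far their counts can be told apart. In the RefSeq annotation of assembly TAIR10.1, IGMT1 (AT1G21100, chr1:7386762-7388512), IGMT3 (AT1G21110, chr1:7389981-7391603), IGMT2 (AT1G21120, chr1:7395179-7396823) and IGMT4 (AT1G21130, chr1:7398814-7400736) follow each other on the minus strand within 14.0 kb, with 0 other annotated genes between them. The deposited table has no coordinates, and the submitters' processing notes name the build TAIR10. The coding sequences of IGMT2 and IGMT3 were 97.4% identical over their aligned bases, and those of the other pairs among the 4 copies 92.5 to 93.4%. The last 90 coding bases of each copy, stop codon included, are shown 5′ to 3′ on the gene's strand, with capitals where a base differs from IGMT4 at the same position.
IGMT4: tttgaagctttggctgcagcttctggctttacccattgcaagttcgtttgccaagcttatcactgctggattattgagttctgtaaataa
IGMT1: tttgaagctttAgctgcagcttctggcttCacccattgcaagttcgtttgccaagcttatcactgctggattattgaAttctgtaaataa
IGMT2: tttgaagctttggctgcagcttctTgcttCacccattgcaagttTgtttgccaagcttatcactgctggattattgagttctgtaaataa
IGMT3: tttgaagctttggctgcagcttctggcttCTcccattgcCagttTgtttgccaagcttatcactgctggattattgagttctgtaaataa
IGMT1 and IGMT2 differed from IGMT4 at 3 of these 90 bases each, and IGMT3 at 4. Over the last 300 bases of the annotated transcripts, 62 of the 251 words of 50 bases in IGMT3 were found elsewhere in the nuclear genome, 61 of them in IGMT4 and 1 in IGMT2. For IGMT2 this was 1 of 251 words, and for IGMT1, IGMT4 and the other 5 genes 0 of 251. Counts of IGMT3 are therefore uncertain where reads fell in the shared stretch, since how such reads were assigned is not given in the sources used here.

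The remaining genes lie apart from this cluster. IGMT5 (AT1G76790, chr1:28822186-28823727, minus strand) was 76.5 to 76.9% identical to the tandem copies. CYP81F3 (AT4G37400, chr4:17583992-17586442), CYP81F4 (AT4G37410, chr4:17590772-17592920) and CYP81F1 (AT4G37430, chr4:17597110-17598958) lie on the plus strand within 15 kb, and CYP81F2 (AT5G57220, chr5:23187840-23189902, plus strand) lies on another chromosome. The coding sequences of the 4 CYP81F genes were 69.9 to 81.6% identical to each other. Of the 9 genes, 3 overlap an annotated gene on the opposite strand, namely CYP81F1 with AT4G37432, CYP81F4 with AT4G37409 and IGMT5 with AT1G76780. Whether the counting used strand is not given in the sources used here, so reads of such a pair might not be told apart. AT4G37409 had 1 count in aig2abc pad4 and 0 in the other genotypes, and AT1G76780 had 1 count in aig2abc pad4, 5 in aig2abc, 9 in pad4 and 2 in Col-0. AT4G37432 had 63 counts in aig2abc pad4, 4 in aig2abc, 82 in pad4 and 77 in Col-0, close in number to those of CYP81F1 in all groups but aig2abc, where CYP81F1 had 23.

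Sequence upstream of the start of transcription is shown for CYP81F2 and the 4 tandem IGMT genes. They were chosen because 4 of these 5 were called higher by edgeR in both comparisons below that add the AIG2 mutations. IGMT4, their neighbour, did not pass that test. Each stretch is the 250 bases before the annotated start in TAIR10.1, 5′ to 3′ on the gene's strand. Capitals mark the core of the W box, the element bound by WRKY transcription factors, searched as TTGAC and on the other strand as GTCAA.
CYP81F2, chr5:23187590-23187839, plus strand: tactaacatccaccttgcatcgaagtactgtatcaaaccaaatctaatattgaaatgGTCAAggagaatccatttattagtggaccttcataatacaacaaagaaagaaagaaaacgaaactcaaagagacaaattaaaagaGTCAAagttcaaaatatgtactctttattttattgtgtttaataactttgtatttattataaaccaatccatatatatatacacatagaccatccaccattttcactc
IGMT1, chr1:7388513-7388762, minus strand: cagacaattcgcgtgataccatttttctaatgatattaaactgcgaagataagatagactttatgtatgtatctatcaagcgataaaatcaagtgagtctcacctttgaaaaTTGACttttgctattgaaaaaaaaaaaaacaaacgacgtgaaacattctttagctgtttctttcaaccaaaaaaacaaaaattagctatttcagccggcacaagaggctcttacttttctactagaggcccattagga
IGMT2, chr1:7396824-7397073, minus strand: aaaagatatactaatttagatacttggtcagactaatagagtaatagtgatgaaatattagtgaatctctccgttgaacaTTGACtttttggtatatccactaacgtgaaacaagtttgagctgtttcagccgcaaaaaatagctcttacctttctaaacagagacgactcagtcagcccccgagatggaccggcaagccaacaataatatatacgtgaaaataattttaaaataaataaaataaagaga
IGMT3, chr1:7391604-7391853, minus strand: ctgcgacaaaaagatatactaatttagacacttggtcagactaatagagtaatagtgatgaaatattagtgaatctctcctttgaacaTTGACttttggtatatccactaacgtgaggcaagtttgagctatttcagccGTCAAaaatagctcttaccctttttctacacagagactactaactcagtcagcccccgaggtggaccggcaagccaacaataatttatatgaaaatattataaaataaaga
IGMT4, chr1:7400737-7400986, minus strand: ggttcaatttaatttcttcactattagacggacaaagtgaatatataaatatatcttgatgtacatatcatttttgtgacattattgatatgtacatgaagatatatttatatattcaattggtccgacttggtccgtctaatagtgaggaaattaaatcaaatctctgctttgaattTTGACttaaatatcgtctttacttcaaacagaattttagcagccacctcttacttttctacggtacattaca
The core was present 2 times in CYP81F2 and in IGMT3, 1 time in IGMT1, IGMT2, IGMT4 and CYP81F4, and 0 times in CYP81F1, CYP81F3 and IGMT5. It was thus found in 6 of 9 genes, against 44.9% of all 27443 stretches of this length. The G box, CACGTG, and the GCC box, read as GCCGCC on either strand, were in 0 of 9 genes, against 6.49% and 1.87% of all stretches. The TGA element core TGACG, also read on both strands, which can overlap a W box core, was in 2 of 9, namely CYP81F4 and IGMT3, against 18.6% of all stretches. The stretch before IGMT4 lies partly within the annotated microRNA gene MIR5999 (AT1G05627). A match to these letters describes the sequence and shows no binding.

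Total counts ranged from 584342 to 10697612 per library. The aig2abc libraries were the shallowest, at 2867679, 584342 and 3005199 counts, so depth and genotype cannot be told apart in comparisons with that group. In aig2abc replicate 2, 1 count stood for 1.93 CPM (counts per 1000000 of the TMM-scaled library total), and the limit that a count of 0 allows (3 counts) was 5.79 CPM. In the other 11 libraries that limit was 0.287 to 1.11 CPM; these limits cover counting error only. AIG2C fell to 5, 2 and 2 counts in aig2abc pad4 and 4, 0 and 4 in aig2abc, against 346, 348 and 375 in pad4 and 238, 321 and 560 in Col-0. AIG2A and AIG2B were still counted in the mutants, with mean levels of 215 and 188 CPM in aig2abc pad4, 90.3 and 709 CPM in aig2abc, 49.2 and 989 CPM in pad4 and 66.7 and 769 CPM in Col-0. Lesions that leave a 3′ end in place would not be seen in these counts. PAD4 averaged 6.39 CPM in aig2abc pad4, 50.1 CPM in aig2abc, 3.02 CPM in pad4 and 26.5 CPM in Col-0. The labelled tissue was checked with markers. The 6 mesophyll markers summed to 30400 to 63300 CPM over the libraries, and the 8 root markers to 13.5 to 38.4 CPM, with BGLU21, EXPA7 and PRP3 at 0 in every library.

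With the AIG2 mutations, the methyltransferase genes IGMT1, IGMT2 and IGMT3 were higher, whether or not PAD4 was mutated as well. CYP81F2 was also called higher in both comparisons, with fitted log2 changes of 4.26 in aig2abc against Col-0 and 4.18 in aig2abc pad4 against pad4. Its call in aig2abc against Col-0 rested on 7 counts against 1, so only the rise in aig2abc pad4 against pad4 was well counted. A difference between the 2 changes could not be resolved (interaction −0.08 ± 2.07, SE). In aig2abc against Col-0, 5 of the 9 genes rose and 0 fell at a Benjamini-Hochberg adjusted p under 0.05 in edgeR's quasi-likelihood test, against 18% of the 15082 tested genes called higher and 19.5% called lower. In aig2abc pad4 against pad4, 4 rose and 0 fell, against 3.34% of genes called higher and 0.663% called lower. At an unadjusted p under 0.05 the counts were 7 and 5, and 0 fell also by DESeq2 and limma-voom. In aig2abc against Col-0 at least 7001 of the 15082 tested genes also had such an unadjusted p. For aig2abc pad4 against pad4 the matching number is not given here. The median log2 fold change of the 9 genes was 1.60 in aig2abc against Col-0, beside −0.08 for all tested genes, and 0.85 in aig2abc pad4 against pad4, beside −0.02. These 2 comparisons share no library. A gene was tested when at least 3 libraries had about 10 counts at the depth of the median library. CYP81F2 and IGMT1 met this only with aig2abc pad4 libraries, and IGMT3 only with aig2abc pad4 or aig2abc libraries, so for these the filter and the change are not independent, and the counts above are given as a description. The other 6 genes met it with the pad4 and Col-0 libraries alone.

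**Figure D1:**
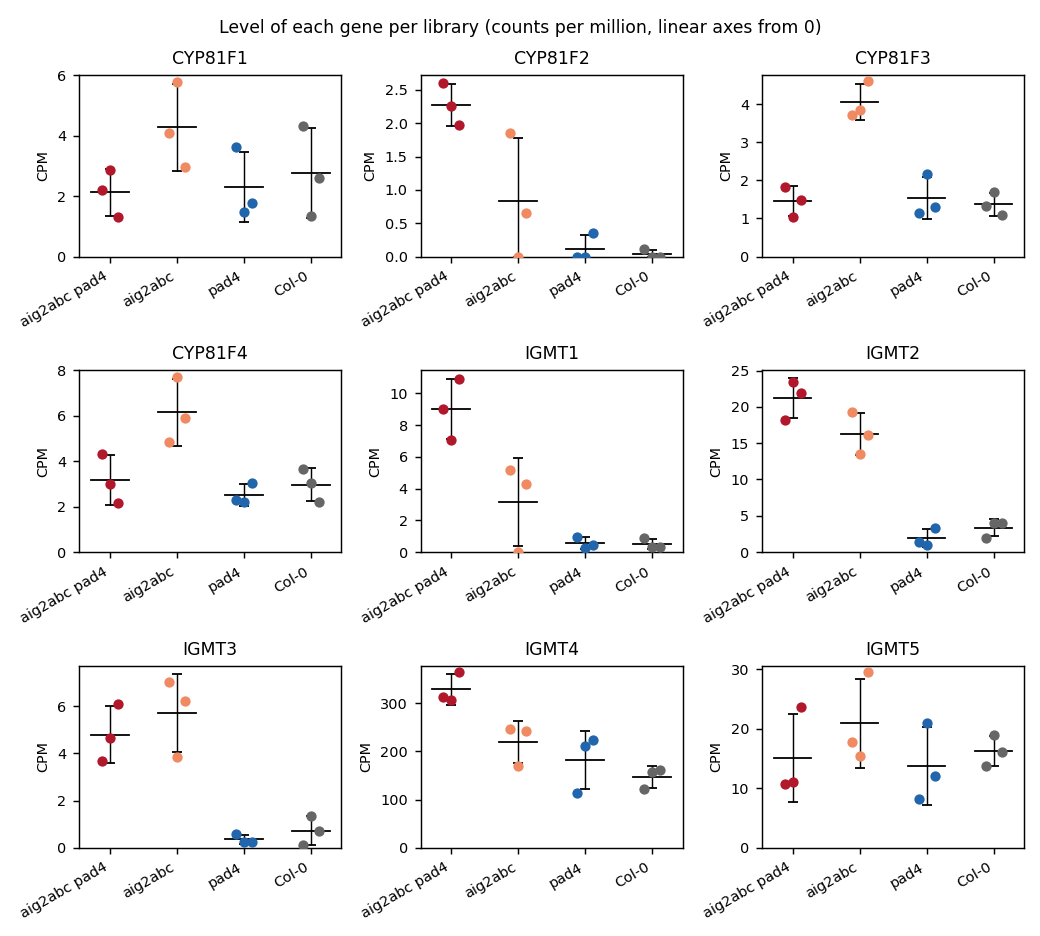
Level of each of the 9 genes in each library, in CPM on linear axes that start at 0, for aig2abc pad4, aig2abc, pad4 and Col-0 from left to right. Points are libraries, the wide bar is the mean of 3 and the whiskers are 1 SD, cut at 0; IGMT2 lies between 13.5 and 23.5 CPM in the 6 libraries with AIG2 mutations and between 1.03 and 4.05 CPM in the other 6.

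Of the hydroxylases, CYP81F2 was close to the limit of counting without the AIG2 mutations. Its raw counts were 27, 15 and 12 in aig2abc pad4, 5, 0 and 2 in aig2abc, 0, 0 and 3 in pad4 and 1, 0 and 0 in Col-0. Every aig2abc pad4 library was above every pad4 library, while the aig2abc and Col-0 libraries overlapped, because aig2abc replicate 2 had 0 counts. With 54 counts over the group against 3, CYP81F2 was 21.6 times higher in aig2abc pad4 than in pad4 at equal depth (95% exact counting interval 7 to 108). In the fit its log2 fold change was 4.18 ± 0.88 (SE, adjusted p = 0.00567). In aig2abc against Col-0, with 7 counts against 1, the ratio was 27.9 with an interval of 3.58 to 1260, and the fitted change of 4.26 ± 1.42 had an adjusted p of 0.015. That call rested on aig2abc replicate 1, without which the change was 3.25 and the adjusted p 0.183.

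CYP81F3, which in tests of the enzymes hydroxylates the same parent compound, rose in aig2abc against Col-0. It had 1.83, 1.05 and 1.48 CPM in aig2abc pad4, 3.71, 3.86 and 4.60 CPM in aig2abc, 1.15, 2.18 and 1.29 CPM in pad4 and 1.33, 1.69 and 1.1 CPM in Col-0. The 3 aig2abc libraries were above all 9 others, and the ranges of the other 3 groups overlapped. Its change was 1.60 ± 0.48 in aig2abc against Col-0 (SE, edgeR adjusted p = 0.0147) and −0.05 ± 0.44 in aig2abc pad4 against pad4 (adjusted p = 1). These values rest on 26 counts in aig2abc, of which replicate 2 gave 2, and the call was lost without aig2abc replicate 3, at 1.46 and an adjusted p of 0.08. The difference between the 2 changes, tested as the interaction, was −1.65 ± 0.64 with an unadjusted p of 0.0195 and an adjusted p of 0.0839, and so did not pass.

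CYP81F4, the hydroxylase of the ring nitrogen, had 4.33, 3.01 and 2.14 CPM in aig2abc pad4, 4.82, 7.72 and 5.91 CPM in aig2abc, 2.29, 2.18 and 3.04 CPM in pad4 and 3.66, 3.04 and 2.20 CPM in Col-0. All aig2abc libraries were above those of the other groups, but the change of 0.96 ± 0.41 in aig2abc against Col-0 missed the threshold (SE, edgeR adjusted p = 0.0747). In aig2abc pad4 against pad4 it was 0.36 ± 0.37 (adjusted p = 0.779), with overlapping groups. CYP81F1 had 2.21, 2.86 and 1.32 CPM in aig2abc pad4, 4.08, 5.79 and 2.95 CPM in aig2abc, 3.63, 1.49 and 1.76 CPM in pad4 and 4.33, 1.35 and 2.60 CPM in Col-0. All neighbouring groups overlapped, and its change was 0.44 ± 0.54 in aig2abc against Col-0 (adjusted p = 0.543) and −0.11 ± 0.48 in aig2abc pad4 against pad4 (adjusted p = 0.967). The 3 neighbouring hydroxylase genes CYP81F1, CYP81F3 and CYP81F4 together averaged 6.75 ± 1.73 CPM in aig2abc pad4, 14.5 ± 2.54 in aig2abc, 6.34 ± 0.644 in pad4 and 7.10 ± 1.93 in Col-0 (SD, n = 3 each), a log2 ratio of means of 1.03 for aig2abc over Col-0 and 0.09 for aig2abc pad4 over pad4. The highest aig2abc values, those of replicate 2, rested on 4 counts for CYP81F4, 3 for CYP81F1 and 9 for the sum. Without that library the summed log2 ratio for aig2abc over Col-0 was 0.88.

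Among the methyltransferase genes, IGMT2 had the best-measured rise of the 9 genes, in the sense of the smallest p in both comparisons. It had 18.2, 23.5 and 21.9 CPM in aig2abc pad4, 19.3, 13.5 and 16.1 CPM in aig2abc, 1.43, 1.03 and 3.28 CPM in pad4 and 2.00, 4.05 and 3.99 CPM in Col-0. The 6 libraries with AIG2 mutations were all above the 6 without. Its log2 fold change was 3.47 ± 0.38 in aig2abc pad4 against pad4 (SE, edgeR adjusted p = 1.24e-05), with mean levels 11.1 times apart, and 2.33 ± 0.39 in aig2abc against Col-0 (adjusted p = 0.000398), with mean levels 4.87 times apart. The interaction of 1.13 ± 0.54 had an unadjusted p of 0.0489 and an adjusted p of 0.144.

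IGMT1, which acts on the same hydroxyl group, had raw counts of 94, 47 and 66 in aig2abc pad4, 14, 0 and 13 in aig2abc, 10, 2 and 4 in pad4 and 8, 2 and 3 in Col-0. It rose by 3.94 ± 0.53 in aig2abc pad4 against pad4 (SE, edgeR adjusted p = 0.000106) with no overlap of the libraries. In aig2abc against Col-0 it rose by 2.92 ± 0.63 (adjusted p = 0.00214), and the groups overlapped only because aig2abc replicate 2, the shallowest library, had 0 counts. In the other 2 aig2abc libraries the level of IGMT1 was 5.19 and 4.27 CPM, against 0.888, 0.337 and 0.299 CPM in Col-0.

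IGMT3 had raw counts of 38, 31 and 37 in aig2abc pad4, 19, 2 and 19 in aig2abc, 6, 2 and 2 in pad4 and 1, 8 and 7 in Col-0. On the CPM scale the 6 libraries with AIG2 mutations, at 3.66 to 7.04, were all above the 6 without, at 0.111 to 1.35. The log2 fold change was 3.67 ± 0.59 in aig2abc pad4 against pad4 (SE, edgeR adjusted p = 0.000624) and 3.17 ± 0.59 in aig2abc against Col-0 (adjusted p = 0.00083). IGMT3 is the copy whose 3′ end shares words of 50 bases with IGMT4, none of them within the last 300 transcript bases of IGMT4.

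IGMT4 gave most of the counts of the tandem cluster and had the smallest fitted changes within it. Its levels were 314, 308 and 366 CPM in aig2abc pad4, 247, 170 and 243 CPM in aig2abc, 113, 211 and 224 CPM in pad4 and 121, 158 and 161 CPM in Col-0. The mutants stood above their counterparts with no overlap, yet neither change passed, at 0.85 ± 0.27 in aig2abc pad4 against pad4 (SE, edgeR adjusted p = 0.109) and 0.59 ± 0.28 in aig2abc against Col-0 (adjusted p = 0.1). DESeq2 called the change in aig2abc pad4 against pad4, with an adjusted p of 0.0298. IGMT5, the methyltransferase of the ring nitrogen branch, had 10.7, 11.0 and 23.7 CPM in aig2abc pad4, 17.8, 15.4 and 29.5 CPM in aig2abc, 8.12, 20.9 and 12.1 CPM in pad4 and 13.8, 18.9 and 16.1 CPM in Col-0. Its groups all overlapped, and its log2 fold change was 0.14 ± 0.37 in aig2abc pad4 against pad4 (adjusted p = 0.945) and 0.44 ± 0.39 in aig2abc against Col-0 (adjusted p = 0.389).

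**Figure D2:**
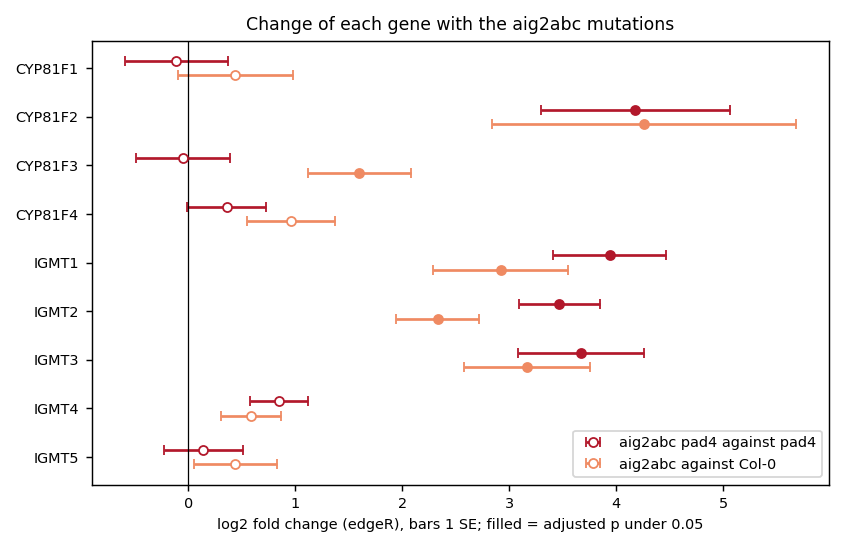
Log2 fold change of each gene from the edgeR fit, with bars of 1 SE, in aig2abc pad4 against pad4 (dark red) and aig2abc against Col-0 (orange). Filled points have an adjusted p under 0.05: CYP81F2, IGMT1, IGMT2 and IGMT3 are filled in both comparisons, with changes of 2.33 to 4.26, and CYP81F3 is filled in aig2abc against Col-0, at 1.60.

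The make-up of the tandem cluster differed between genotypes with and without the AIG2 mutations. IGMT4 took 89.7 to 91.0% of the summed counts of IGMT1 to IGMT4 in aig2abc pad4 and 88.7 to 90.7% in aig2abc, against 97.4 to 99.3% in pad4 and 96.5 to 97.6% in Col-0. Because a 3′ assay samples each transcript near its end, and the annotated transcripts are 1413 to 1744 bases long, these shares were taken without a correction for length. IGMT2 took 5.27 to 6.85% in aig2abc pad4 and 5.96 to 7.22% in aig2abc, against 0.486 to 1.44% in pad4 and 1.62 to 2.47% in Col-0. IGMT3 took 1.06 to 1.5% in aig2abc pad4 and 2.06 to 2.53% in aig2abc, against 0.103 to 0.496% in pad4 and 0.0898 to 0.823% in Col-0. IGMT1 took 2.06 to 2.68% in aig2abc pad4, against 0.108 to 0.826% in pad4. Its share in aig2abc, 0 to 1.86%, overlapped that in Col-0, 0.18 to 0.718%, with the 0 from aig2abc replicate 2. The sum of the copies does not depend on how counted reads were split among them, but it would miss shared reads that were discarded. It averaged 364 ± 35.2 CPM in aig2abc pad4 and 245 ± 50.4 CPM in aig2abc, against 185 ± 60.9 CPM in pad4 and 151 ± 24.0 CPM in Col-0 (SD, n = 3 each). The log2 ratio of these means was 0.97 for aig2abc pad4 over pad4 and 0.70 for aig2abc over Col-0, beside a pooled SD between libraries of 0.34. Since IGMT4 made up most of the sum, these ratios largely repeat its own changes, which edgeR did not call.

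**Figure D3:**
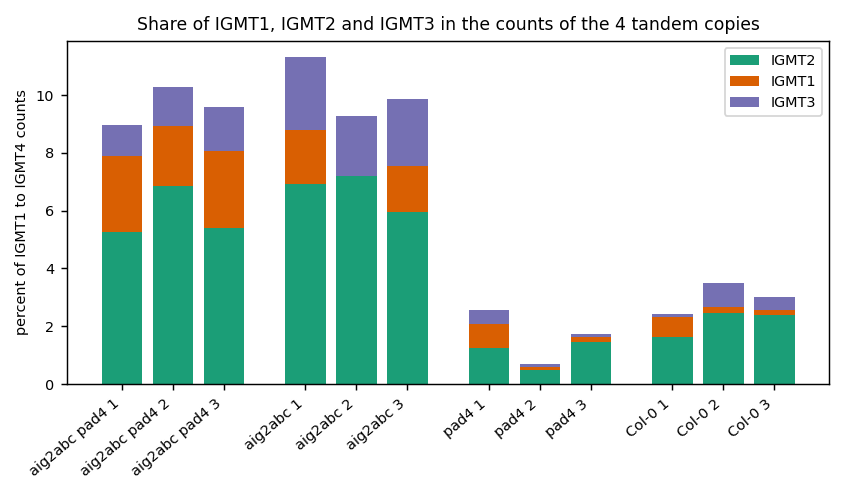
Share of IGMT2, IGMT1 and IGMT3 in the summed counts of the 4 tandem copies, in percent, for each library of aig2abc pad4, aig2abc, pad4 and Col-0 from left to right; the remainder up to 100%, not drawn, is IGMT4. The axis starts at 0, and IGMT2 alone stands at 5.27 to 7.22% in the 6 libraries with AIG2 mutations and at 0.486 to 2.47% in the other 6; IGMT1 is at 0 in aig2abc replicate 2.

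Mutation of PAD4 alone left the 9 genes without a detected change. In pad4 against Col-0, 0 of 9 were called by edgeR, DESeq2 or limma-voom and 0 had an unadjusted p under 0.05, against 0.00663% of tested genes called higher and 0.683% called lower. The fitted changes ran from −0.87 ± 0.71 for IGMT3 to 1.13 ± 1.81 for CYP81F2 (SE), with a median of −0.24 beside −0.01 for all genes. The lowest unadjusted p was that of IGMT2, at 0.0599, with a change of −0.80 ± 0.40. For CYP81F2, with 3 counts in pad4 against 1 in Col-0, a difference was not detectable at this depth.

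On the aig2abc background, mutation of PAD4 gave 1 call among the 9 genes, a lower level of CYP81F3. That number is near the share of all tested genes called lower, and the call was not stable. In aig2abc pad4 against aig2abc, CYP81F3 fell by 1.47 ± 0.47 on the log2 scale (SE, edgeR adjusted p = 0.0327), to 1.45 ± 0.387 CPM in aig2abc pad4, against 4.05 ± 0.475 CPM in aig2abc (SD, n = 3 each). It was the 1 gene of 9 called lower, against 11.5% of tested genes, and 0 were called higher, against 12.8%, with IGMT1 alone at an unadjusted p under 0.05 in that direction and 0 also by DESeq2 and limma-voom. The call was lost on omission of any single aig2abc library (−1.46 for replicate 1, −1.48 for 2 and −1.33 for 3) or of aig2abc pad4 replicate 1 (−1.62) or 2 (−1.22), and with no filter on low counts (−1.34). IGMT1 stood at 1.15 ± 0.51 (adjusted p = 0.103) and IGMT4 at 0.57 ± 0.28 (adjusted p = 0.135), both with no overlap of the groups. CYP81F2 was also above aig2abc in every aig2abc pad4 library, with a ratio of 2.09 at equal depth and a counting interval of 0.948 to 5.45. Its 0 counts in aig2abc replicate 2 allow up to 5.79 CPM, above the aig2abc pad4 libraries. CYP81F4 stood at −0.83 ± 0.41 (adjusted p = 0.139), CYP81F1 at −0.83 ± 0.56 (adjusted p = 0.28), IGMT5 at −0.55 ± 0.39 (adjusted p = 0.314), IGMT3 at −0.37 ± 0.50 (adjusted p = 0.609) and IGMT2 at 0.33 ± 0.36 (adjusted p = 0.513). CYP81F3, CYP81F4 and CYP81F1 were lower in aig2abc pad4, also with no overlap of the groups. For CYP81F1 the gap was only 2.86 against 2.95 CPM, with 23 counts in aig2abc. How often the groups stand apart over all genes was not counted, so these gaps are given as a description only. IGMT5 was called lower when aig2abc pad4 replicate 3 was left out, at −1.02 and an adjusted p of 0.0405.

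Whether the effect of the AIG2 mutations differed with PAD4 was tested as the interaction, the change in aig2abc pad4 against pad4 minus that in aig2abc against Col-0. By edgeR 0 of the 9 genes were called higher and 0 lower, as by DESeq2 and limma-voom, against 8.53% and 6.23% of tested genes. CYP81F3 and IGMT2, given above, were the 2 with an unadjusted p under 0.05, which at least 5102 of the 15082 tested genes also had. The other 7 interactions lay between −0.60 ± 0.55 for CYP81F4 and 1.02 ± 0.85 for IGMT1 (SE). That of CYP81F2 was −0.08 ± 2.07.

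The order of mean levels over the genotypes differed between the 9 genes. CYP81F2, IGMT1 and IGMT4 ran in the order aig2abc pad4, aig2abc, pad4, Col-0, with a gap between the ranges of aig2abc pad4 and aig2abc and overlap further down. For CYP81F2 that gap was only 1.97 against 1.85 CPM, and its 0 counts in aig2abc replicate 2 allow up to 5.79 CPM. IGMT2 had the order aig2abc pad4, aig2abc, Col-0, pad4 and IGMT3 the order aig2abc, aig2abc pad4, Col-0, pad4, and in both the only gap between ranges lay between the groups with and without the AIG2 mutations. CYP81F1, CYP81F3, CYP81F4 and IGMT5 were highest in aig2abc, apart from the next group for CYP81F3 and CYP81F4 and overlapping with it for CYP81F1 and IGMT5.

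Genes outside the set with the most similar profiles were sought by Pearson correlation of log2 CPM over the 12 libraries among the tested genes. These libraries fall into 4 genotypes of unequal depth, so the values describe mostly the differences between genotypes. For CYP81F2 the 3 closest were AT1G26380 (r = 0.97), AT4G16260 (r = 0.95) and GSTU12 (r = 0.93), a glutathione transferase gene. For IGMT1 they were NRT1.8 (r = 0.98), a nitrate transporter gene, AT1G26380 (r = 0.95) and AT1G15415 (r = 0.94), and for IGMT2 AT3G04210 (r = 0.98), AT2G28085 (r = 0.98) and GSTU4 (r = 0.97). CYP81F4 was most like AT2G18240 (r = 0.93), the clock gene PRR5 (r = 0.92) and AT5G65480 (r = 0.91). IGMT5 was most like the meristem homeobox gene STM (r = 0.92), AT5G11970 (r = 0.90) and AT1G72010 (r = 0.90). Spearman's rho of these 15 pairs was 0.74 to 0.97.

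Of 6 regulators of the pathway, 5 were tested, and in aig2abc pad4 against pad4 2 rose and 0 fell, while in aig2abc against Col-0 3 rose and 0 fell. Of all tested genes, 3.34% were called higher in aig2abc pad4 against pad4 and 18% in aig2abc against Col-0. MYB51, a MYB activator of indole glucosinolate genes, averaged 29.1 ± 11.2 CPM in aig2abc pad4 and 64.4 ± 8.50 CPM in aig2abc, against 4.38 ± 1.29 CPM in pad4 and 5.82 ± 2.47 CPM in Col-0 (SD, n = 3 each). MYB122, a related activator, had 33 counts in aig2abc pad4 and 39 in aig2abc, against 0 in pad4 and 0 in Col-0, and was at least 13.2-fold higher in aig2abc pad4 and at least 51.8-fold higher in aig2abc, with the floor of 3 counts taken over the group. MYC2, a partner of these MYB factors, rose by 1.36 ± 0.31 in aig2abc against Col-0 (SE, edgeR adjusted p = 0.00303). The regulator that was not tested, MYB34, did not rise. It had 1 count in aig2abc pad4, 0 in aig2abc, 21 in pad4 and 5 in Col-0. At the depth of aig2abc, its 0 counts do not show a lower level than in Col-0. The median log2 fold change of the 5 was 0.34 in aig2abc pad4 against pad4 and 1.36 in aig2abc against Col-0, also with MYB122 at its bound, beside −0.02 and −0.08 for all tested genes. In aig2abc pad4 against aig2abc, 3 of the 5 were called lower, against 11.5% of all tested genes, among them MYC2 at −1.11 ± 0.31 (adjusted p = 0.0168) and MYB51 at −1.15 ± 0.34 (adjusted p = 0.0221). These calls were lost when some single libraries were left out. That of MYC2 was lost without aig2abc replicate 3 (−0.74, adjusted p = 0.141) or aig2abc pad4 replicate 1 (−1.08, adjusted p = 0.0635) or 2 (−0.95, adjusted p = 0.0971). That of MYB51 was lost without aig2abc replicate 1 (−1.11, adjusted p = 0.0756), 2 (−1.17, adjusted p = 0.0513) or 3 (−1.02, adjusted p = 0.0948) and without aig2abc pad4 replicate 1 (−0.91, adjusted p = 0.129) or 2 (−0.92, adjusted p = 0.13).

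Of the 11 genes of core synthesis, all tested, 4 rose and 0 fell in aig2abc pad4 against pad4, and 3 rose and 3 fell in aig2abc against Col-0, with median changes of 0.61 and 0.13. The shares of all tested genes, which serve for this list and the next 2, were 3.34% higher and 0.663% lower in aig2abc pad4 against pad4, and 18% higher and 19.5% lower in aig2abc against Col-0. CYP79B2, which converts tryptophan to the oxime at the entry of the pathway, rose by 1.46 ± 0.33 in aig2abc pad4 against pad4 (SE, edgeR adjusted p = 0.016) and by 1.54 ± 0.35 in aig2abc against Col-0 (adjusted p = 0.00334). The call in aig2abc pad4 against pad4 was lost without pad4 replicate 1 (1.28, adjusted p = 0.0734) or pad4 replicate 3 (1.34, adjusted p = 0.0743), and with the replicate number as a block (1.35, adjusted p = 0.0576). Its close relative CYP79B3 stood at 0.07 ± 0.37 in aig2abc pad4 against pad4 (adjusted p = 0.974) and fell in aig2abc against Col-0, with a change of −2.07 ± 0.49 (adjusted p = 0.00418). Of 8 genes of turnover and transport, 1 rose and 0 fell in aig2abc pad4 against pad4, namely the transporter gene PEN3 at 1.33 ± 0.28 (adjusted p = 0.00788), and the median was 0.49. In aig2abc against Col-0, 1 rose and 4 fell, among them the myrosinase genes TGG1 at −3.60 ± 0.70 (adjusted p = 0.00115) and TGG2 at −3.12 ± 0.59 (adjusted p = 0.00102), and the median was −0.52. Of 11 other CYP81 genes, 7 were tested, and 0 were called in aig2abc pad4 against pad4, where 5 had an unadjusted p under 0.05 and DESeq2 called 1 and limma-voom 0. CYP81D1 was the 1 called in aig2abc against Col-0, at 1.79 ± 0.44 (adjusted p = 0.00491), and the medians were 0.79 and −0.12 in these comparisons. In pad4 against Col-0, 0 genes of these 4 lists were called by edgeR, DESeq2 or limma-voom, and 1 core gene and 1 other CYP81 gene had an unadjusted p under 0.05.

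**Figure D4:**
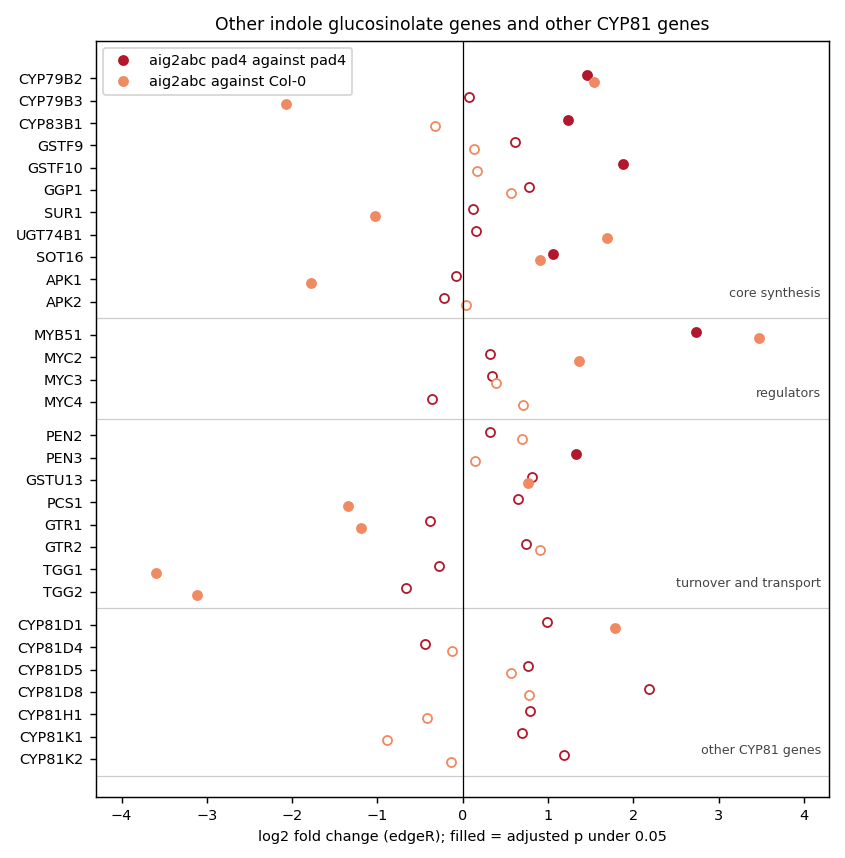
Log2 fold change from the edgeR fit for the tested genes of 4 lists, in aig2abc pad4 against pad4 (dark red) and aig2abc against Col-0 (orange); filled points have an adjusted p under 0.05. MYB122, at 0 counts in pad4 and Col-0, is not drawn; MYB51 lies at 2.73 and 3.48, and TGG1 at −0.28 and −3.60.

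The 6 mesophyll markers summed to 34400 to 53700 CPM in aig2abc pad4 and 30400 to 34200 CPM in aig2abc, against 47100 to 63300 CPM in pad4 and 43800 to 57100 CPM in Col-0. Of the 6, 1 fell in aig2abc pad4 against pad4, against 0.663% of all tested genes, and in aig2abc against Col-0 4 of 6 fell, against 19.5%. RBCS1A and LHCB1.1 were called in neither comparison. The 4 guard cell markers, 2 of them tested, summed to 13.0 to 13.9 CPM in aig2abc pad4, 10.2 to 13.5 in aig2abc, 14.2 to 28.6 in pad4 and 11.4 to 19.0 in Col-0, and the 4 phloem markers to 63.6 to 92.1, 64.5 to 88.8, 80.3 to 121 and 71.8 to 133 CPM in the same order. Of each of these lists, 1 marker fell in aig2abc against Col-0 and 0 were called in aig2abc pad4 against pad4. In whole shoots, fewer cells of a type and less RNA per cell cannot be told apart, and the part of tissue make-up in the changes of the 9 genes was not tested.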

How the data were processed

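The values used were whole-number read counts per gene, deposited by the authors for 12 libraries with no normalization, per the column values. Of tools and builds, the submitters' processing notes list STAR, edgeR and TAIR10. Versions, settings, annotation and strand mode are not given there or in the labels. The third pad4 column has a number found in no pad4 title; it was placed in that group by its name and is called pad4 replicate 3.

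The analysis used edgeR 4.0.16 under R 4.3.3. After filterByExpr by group (minimum count 10), 15082 genes remained; TMM factors were applied, and a robust quasi-likelihood model of 4 group means was fitted to all 12 libraries together and tested two-sided. Benjamini-Hochberg adjustment ran over all tested genes within each of 5 comparisons, with a threshold of 0.05. Standard errors were taken from the F statistic. CPM were counts over the TMM-scaled library total. Ratios of small counts have 95% exact intervals that cover counting error only. The chi-square per gene between replicates, 3.61 to 64.1, was above sampling noise, so each library counted as 1 sample. The common biological coefficient of variation was 28.7%.

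Alternatives were DESeq2 1.42.0, limma-voom (limma 3.58.1), RLE size factors, no filter, at least 1 CPM in 3 libraries, a fit of each pair of groups alone, a block for the replicate number, counts thinned to the smallest total, and leaving out each library. The fits were tested on simulated data. The 9 genes, the other gene lists and the markers were chosen with earlier results of these data known. Named genes were the 9 members, at most 3 called genes of each list in each comparison (by p), the 3 most similar genes for 5 members, and AIG2A, AIG2B, AIG2C and PAD4. AT4G37432, AT4G37409, AT1G76780 and MIR5999 are named for their overlap with a member's locus, and CYP79B3 in the interaction was named after its value was seen. MYB34 was likewise named after its counts were seen. Sequences, names and loci came from RefSeq, assembly TAIR10.1, matched by locus tag (28932 of 33331 identifiers, all 9 members).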

Additional observations from a re-analysis of the deposited data

Results flagged for a closer look

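By the interaction term of the edgeR fit, the change with the AIG2 mutations was called different with PAD4 for the 10 genes that follow. All are from the lists around the 9 genes or from the check of the genotypes. Of all tested genes, 8.53% were called higher and 6.23% lower in the interaction. Core synthesis had 3 higher and 1 lower of 11 tested genes, and turnover and transport 3 higher of 8. The other CYP81 genes had 1 higher of 7 tested, and the regulators 0 of 5. In core synthesis the interaction was 2.14 ± 0.62 for CYP79B3 (SE, adjusted p = 0.0327), 1.56 ± 0.38 for CYP83B1 (adjusted p = 0.0197), 1.70 ± 0.36 for GSTF10 (adjusted p = 0.014) and −1.53 ± 0.41 for UGT74B1 (adjusted p = 0.0274). In turnover and transport it was 2.00 ± 0.48 for PCS1 (adjusted p = 0.0187), 3.32 ± 0.90 for TGG1 (adjusted p = 0.0273) and 2.44 ± 0.76 for TGG2 (adjusted p = 0.0423). Among the other CYP81 genes it was 1.57 ± 0.50 for CYP81K1 (adjusted p = 0.0454). The targeted genes AIG2A and AIG2B had interactions of 1.68 ± 0.31 (adjusted p = 0.0115) and −2.28 ± 0.61 (adjusted p = 0.0272). When each of the 12 libraries was left out in turn, the call was kept in 8 of 12 fits for CYP83B1, 12 of 12 for GSTF10, 4 of 12 for UGT74B1, 9 of 12 for PCS1, 5 of 12 for TGG1, 4 of 12 for TGG2 and 3 of 12 for CYP81K1. The calls of TGG1 and TGG2 were also lost with limma-voom (adjusted p = 0.0661 and 0.0992) and with no filter on low counts (adjusted p = 0.102 and 0.138), and that of CYP81K1 with limma-voom (adjusted p = 0.0666) and with the replicate number as a block (adjusted p = 0.0508). In counts thinned to the smallest total, the call was lost for 6 of these 7 genes and kept for GSTF10. Such refits are not given here for CYP79B3, AIG2A and AIG2B. Groups of 3 libraries were not examined for single outlying values.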

How the results depend on the processing

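In aig2abc pad4 against pad4, the rises of CYP81F2, IGMT1, IGMT2 and IGMT3 were called in all 12 fits without 1 library, at 3.58 to 6.95, 3.60 to 4.62, 3.18 to 4.07 and 3.46 to 4.25, so the count stayed at 4. In aig2abc against Col-0 the 9 genes had 4 to 5 higher calls. Fitted on only the groups compared, 3 of 7 tested were called there, since CYP81F2 and IGMT1 were not tested. Thinned to 584342 counts per library, 3 of the 9 genes were tested and 0 called in any comparison (IGMT2 at 3.21, adjusted p = 0.457, in aig2abc against Col-0, and 3.17, adjusted p = 1, in aig2abc pad4 against pad4); fewer counts and genes entered that fit. In aig2abc pad4 against aig2abc, lower calls numbered 0 to 2 over the omissions and 0 with no filter.

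Over the omissions, all genes called higher and lower were 1657 to 2953 and 1980 to 3257 in aig2abc against Col-0, 351 to 618 and 22 to 317 in aig2abc pad4 against pad4, 0 to 6 and 66 to 126 in pad4 against Col-0, 921 to 2794 and 455 to 2709 in aig2abc pad4 against aig2abc, and 323 to 2443 and 89 to 2145 for the interaction. Thinned counts gave 148 and 128, 21 and 2, 0 and 3, 55 and 50, and 31 and 18 in that order. Lower calls in aig2abc pad4 against pad4 were 226 with DESeq2 and 31 with only the groups compared. Higher calls in pad4 against Col-0 were 9 with DESeq2, 2 with limma-voom, 6 with no filter and 0 with only the groups compared. limma-voom gave 1098 higher in aig2abc pad4 against aig2abc and 690 for the interaction. With library totals unscaled, the summed CYP81F1, CYP81F3 and CYP81F4 had an interaction of −0.63, against −0.94 with scaling.

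The replicate numbers were not taken to pair libraries: deviations of same-numbered libraries correlated at −0.15 to 0.55, and 2 of 6 and 0 of 6 libraries correlated best with their own number in the 2 comparisons with 3 shared numbers. The highest values were those of number 1, at 0.55 in aig2abc pad4 against pad4 and 0.52 in pad4 against Col-0. For these comparisons no best match is given, so a shared deviation of the libraries numbered 1 is not excluded. In the fit with the number as a replicate block, pad4 replicate 3, whose number is on no pad4 title, formed a block alone. That library thus added nothing to the differences between groups, and blocking and its loss cannot be told apart there. With the number as a replicate block, IGMT1 was called higher in aig2abc pad4 against aig2abc (1.33, adjusted p = 0.04), IGMT2 in the interaction (1.64, adjusted p = 0.0404), 1 of the 9 genes in each, and all-gene calls in pad4 against Col-0 were 3 higher and 68 lower. The block ended the calls of the list genes CYP79B2 in aig2abc pad4 against pad4 (1.35) and CYP81K1 in the interaction (1.48). Under the block, signs turned for IGMT5 in aig2abc pad4 against pad4 (−0.12) and for CYP81F2 in pad4 against Col-0 (−1.84) and in the interaction (2.96). With no block but without pad4 replicate 3, CYP81F2 stood at −1.65 in pad4 against Col-0 and 2.71 in the interaction.

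Of the other sign changes, all but that of PCS1 concern values of the 9 genes that were not called. Over the omissions, in aig2abc pad4 against pad4, CYP81F1 ranged from −0.34 to 0.40, CYP81F3 from −0.25 to 0.28 and IGMT5 from −0.33 to 0.58. In pad4 against Col-0, CYP81F1 ranged from −0.79 to 0.18, CYP81F2 from −1.65 to 2.76, CYP81F3 from −0.15 to 0.36, IGMT1 from −0.55 to 0.81 and IGMT5 from −0.69 to 0.02. In the interaction, CYP81F2 ranged from −1.67 to 2.71, IGMT3 from −0.14 to 1.09 and IGMT5 from −0.77 to 0.15. limma-voom gave 0.01 for CYP81F3 in aig2abc pad4 against pad4, and 0.77 for CYP81F2 and −0.04 for IGMT3 in the interaction, where CYP81F2 was 0.01 with no filter. Thinned counts gave 0.16 for IGMT5 in pad4 against Col-0, −0.07 for IGMT2 and −0.42 for the list gene PCS1 in aig2abc pad4 against aig2abc, and −0.04 and −0.20 for IGMT2 and IGMT4 in the interaction. The cause of these changes was not tested. Over all alternatives, 806 values of the 9 genes kept direction and side of the threshold, 32 turned sign, 10 lost a call and 4 gained one. Of the values of named list genes, 530 kept both, 96 lost a call and 1 turned sign.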
